A study of Mus musculus with 7 samples.

Results

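Collagens are the triple-helical proteins that give extracellular matrix its frame, and their genes were read here in sorted mouse glioma cells with different numbers of Ptprd alleles. The collagen genes were all genes whose symbol is Col, a type number, the letter a and a chain number, taken from probe sets that name exactly 1 gene. This gave 36 of the 12393 named genes and 58 of the 20380 probe sets that name 1 gene, and each gene was represented by its brightest probe set over the 7 arrays. By type number they comprised 9 fibrillar, 8 network-forming, 3 beaded-filament (type VI), 9 FACIT, 3 transmembrane, 2 multiplexin and 2 other collagens.

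A collagen molecule is built from 3 alpha chains, which may be products of 1 gene or of several. Fibrillar collagens (such as types I, III, V and XI) pack into banded fibrils, network-forming type IV is the sheet of basement membranes, type VI makes beaded microfilaments between them, and FACIT collagens sit on the surface of fibrils. Multiplexins (types XV and XVIII) are basement-membrane collagens that carry sugar chains, and transmembrane collagens span the cell membrane. In the brain fibrillar collagen is found mainly in the meninges and around vessels, and type IV in the vascular basement membrane.

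The tumours were induced with RCAS PDGFB GFP. This vector, built from a bird retrovirus, delivers the growth factor PDGFB with green fluorescent protein and infects mouse cells only where they carry the receptor tv-A, which these mice expressed from the Nestin promoter. It was injected into the brain on day 1 to 3 after birth, and GFP-positive, DAPI-negative tumour cells were sorted at symptoms or at 12 weeks. The groups were Ptprd+/-p16-/- (HET, 2 arrays), Ptprd-/-p16-/- (KO, 3 arrays) and Ptprd+/+p16-/- (WT, 2 arrays), so that all 7 lacked p16, an inhibitor of the cell cycle, on a mixed C57/BL6 and FVB/N background. Ptprd encodes a receptor-type protein tyrosine phosphatase, and the design asks how the glioma cells differ when 1 or both alleles are lost. Replicates are labelled as biological, but the labels do not tell whether each array stands for 1 mouse, so the p-values reflect only how these arrays varied.

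Values are log2 expression levels as deposited, and medians of the arrays lay between 6.62 and 6.71. Ptprd itself had levels of 9.42 and 9.57 in HET cells, 9.61, 8.96 and 9.93 in KO cells, and 10.86 and 10.89 in WT cells, which does not separate KO from HET. Where its probe set lies relative to the deleted part is not given in the sources used here, so the level checks the HET and KO labels against WT only. The HET arrays stood apart, since over probe sets they correlated with the other arrays at 0.976 to 0.987, while KO and WT arrays correlated with each other at 0.990 to 0.995. HET replicate 1 and KO replicate 1 held both the female transcript Xist (11.16 and 12.73) and the Y-linked Eif2s3y (9.28 and 8.70), so results are also given without both of them. WT replicate 1 and KO replicate 2 held Eif2s3y (10.1 and 9.8) with low Xist (5.4 and 5.1). The remaining arrays held Xist with low Eif2s3y, so sex is not balanced over the genotypes. Markers of oligodendrocyte progenitors, the cell type these gliomas resemble, averaged 11.5 to 12.2 on every array. With RNA of sorted cells in bulk, fewer cells of a type and less RNA per cell cannot be told apart.

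Genes entered the tests when their brightest probe set exceeded the 30th percentile of at least 2 arrays, which held for 27 collagen genes. The 9 left out were Col1a1, Col2a1, Col4a3, Col4a4, Col4a6, Col10a1, Col14a1, Col17a1 and Col22a1. Type I collagen was thus seen through 1 of its chains: Col1a1, whose product makes up most of the type I molecule, lay between 4.01 and 4.24 on all 7 arrays by its brighter probe set, and Col1a2 lay above the percentile on all 7. The untested genes ranged from 2.82 to 3.04 for Col17a1 up to 4.31 to 4.96 for Col2a1, the chain of cartilage type II collagen. Col13a1 passed through its HET arrays alone and had to differ, and Col6a1 and Col4a5 passed on the HET arrays and WT replicate 1. Col26a1 entered the other way, through its KO and WT arrays alone, and had to be lower in HET. Counts over the tested members therefore favour genes that are high in HET, with Col26a1 as an exception.

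HET cells had higher levels of 8 of the 27 tested collagen genes than WT cells and lower levels of 0, by limma at an adjusted p under 0.05. They were the beaded-filament chains Col6a1 and Col6a2, the fibrillar chains Col5a2, Col3a1 and Col1a2, the network chain Col4a5, the multiplexin Col18a1 and the transmembrane Col13a1. That is 29.6% of the collagen genes, against 10.1% of all 9243 genes tested (4.2% higher and 5.95% lower). Without the filter, 7 of all 36 members were called higher and 0 lower (19.4%, against 6.54% of all 12393 genes, 2.76% higher and 3.78% lower). The HET and WT arrays did not overlap for 19 of the 27, 13 higher and 6 lower in HET (over all genes 61.3%, 26.2% higher and 35.1% lower). At an unadjusted p under 0.05, 11 of the 27 were higher and 4 lower, beside 29.9% of all genes (12.7% higher and 17.2% lower). The median log2 difference of the collagen genes was 0.29, against -0.04 over all genes tested, and over the 36 members without the filter it was 0.12.

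**Figure D1:**
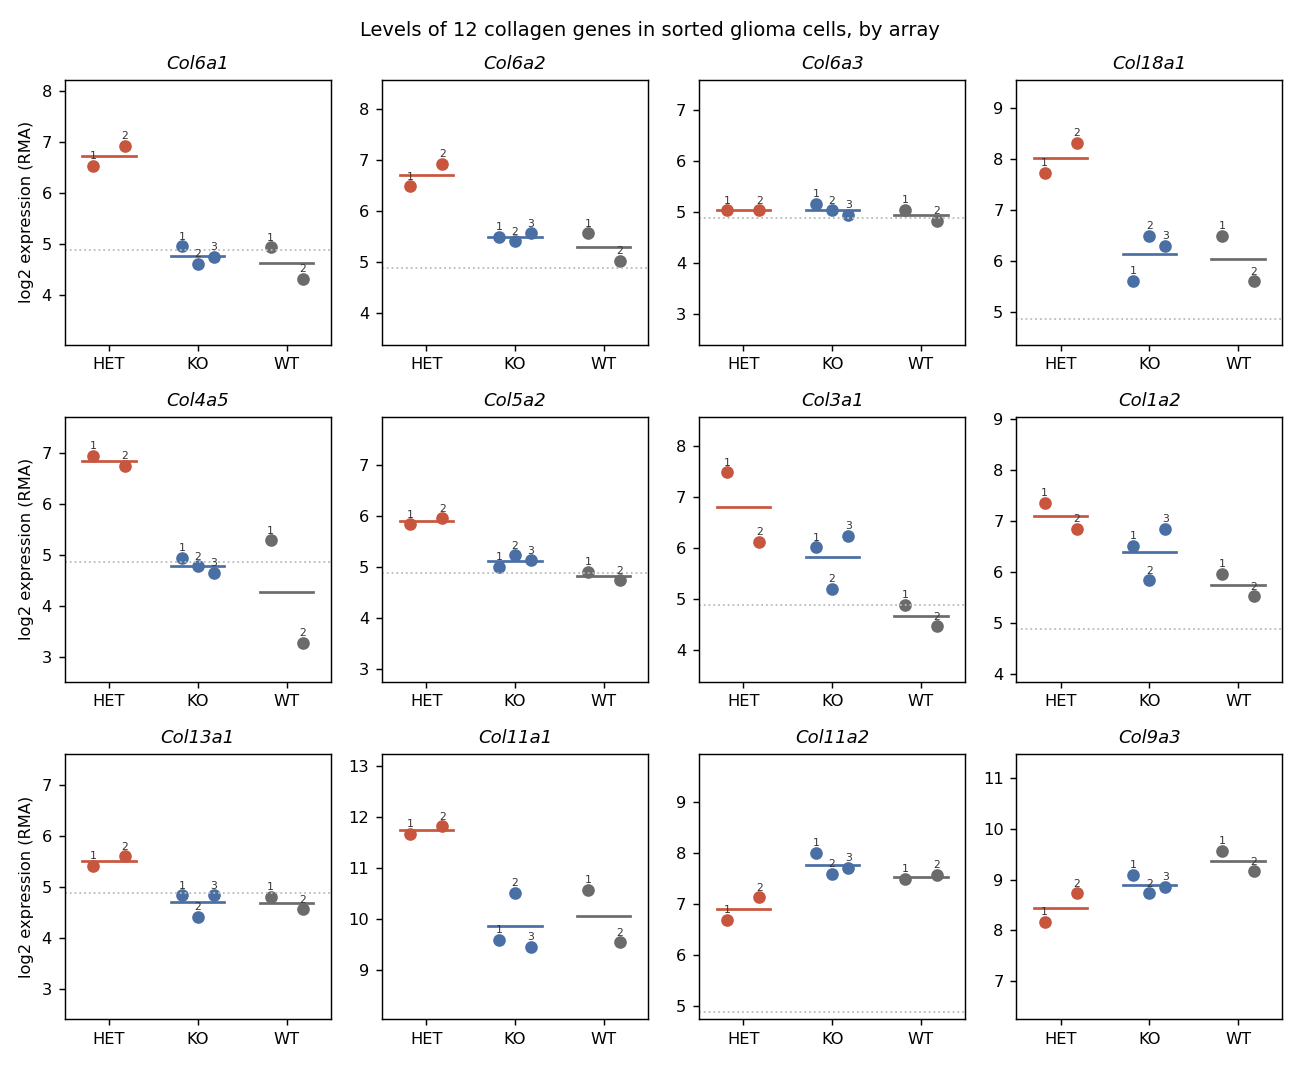
Log2 level (RMA) of 12 collagen genes on each array: the 8 called in HET against WT, and Col6a3, Col11a1, Col11a2 and Col9a3. HET, KO and WT arrays stand side by side with points numbered by replicate, solid lines at group means and a dotted line at the mean 30th percentile of the arrays. Both HET arrays lie above all others for Col6a1, Col6a2 and Col18a1, overlap the rest for Col6a3, and lie below all others for Col11a2.

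The count rested on single arrays. It was 1 without WT replicate 2 (Col4a5), 3 without HET replicate 1 (Col5a2, Col6a1 and Col6a2), 5 without WT replicate 1, and 5 without HET replicate 2 or KO replicate 1 (4 higher and 1 lower in either case). Without HET replicate 1 and KO replicate 1 together 0 of 27 collagen genes and 0 of all 9243 genes were called by limma, while 14 of the 27 had an unadjusted p under 0.05 (19.5% of all genes) and the collagen median was 0.36. The direction of each called gene was the same in all of these fits. Shares of all genes called are not given for the fits with 1 array left out. Their drops in count are thus not read as particular to collagen genes.

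Beaded filaments of type VI collagen are assembled from 3 different chains, and the genes of all 3 were tested. Col6a1, which encodes the alpha 1 chain, had levels of 6.53 and 6.93 in HET cells, 4.95, 4.60 and 4.74 in KO cells, and 4.93 and 4.31 in WT cells. Both HET arrays lay well above every other array, and the KO and WT arrays overlapped. No KO array lay above the percentile of the filter. The difference of HET from WT was 2.10 ± 0.24 (SE; adjusted p = 0.0073), or 4.30-fold, with WT replicate 2 among the dimmest 30% of its array, so that the size of the fold is uncertain.

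Col6a2, the alpha 2 chain, stood at 6.48 and 6.92 in HET cells, 5.49, 5.40 and 5.56 in KO cells, and 5.56 and 5.02 in WT cells. Again the HET arrays were the highest, and the log2 difference from WT was 1.41 ± 0.21 (adjusted p = 0.0130), or 2.66-fold. Its dimmer probe set differed by 0.36 (adjusted p = 0.221 over all probe sets), so the probe sets of Col6a2 share a direction but not a size. Col6a3, the alpha 3 chain, which is part of the same molecule, lay at 5.02 on both HET arrays, at 5.16, 5.02 and 4.94 on the KO arrays, and at 5.04 and 4.82 on the WT arrays. Here the groups overlapped, and the log2 difference of HET from WT was 0.09 ± 0.13 (adjusted p = 0.668). Whether the 3 chains differed from each other in their response was not tested. Such values of members that did not pass are given for chains of a called type, a choice made after the values were seen.

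Col6a2, Col6a1 and Col18a1 lie on chromosome 10, and in the RefSeq order of protein-coding genes only Pcbp3 and Slc19a1 lie between them. Col18a1, the core protein of type XVIII collagen and the source of endostatin, had levels of 7.74 and 8.32 in HET cells, 5.62, 6.50 and 6.30 in KO cells, and 6.50 and 5.60 in WT cells. Both HET arrays lay above all others, with a log2 difference from WT of 1.98 ± 0.39 (adjusted p = 0.0269), or 3.95-fold, and its second probe set gave 2.26. The genes in between did not pass, with log2 differences of 0.01 ± 0.12 for the RNA-binding protein Pcbp3 (adjusted p = 0.964) and 0.04 ± 0.11 for the folate carrier Slc19a1 (adjusted p = 0.840). A promoter window of each of the 3 collagen genes is shown because these neighbours were higher together. Col6a2 and Col18a1 have another window each, at a second RefSeq start, which is not shown. Each window runs from 250 bases before to 50 after a RefSeq start (GRCm38.p6, minus strand): chr10:76725995-76726294 for Col6a1, chr10:76623355-76623654 for Col6a2 and chr10:77166481-77166780 for Col18a1. Capitals mark the CCAAT box, the letters TATAAA, the core of the GC box (GGGCGG) and the form bound by AP-1 (TGANTCA) on either strand.
Col6a1: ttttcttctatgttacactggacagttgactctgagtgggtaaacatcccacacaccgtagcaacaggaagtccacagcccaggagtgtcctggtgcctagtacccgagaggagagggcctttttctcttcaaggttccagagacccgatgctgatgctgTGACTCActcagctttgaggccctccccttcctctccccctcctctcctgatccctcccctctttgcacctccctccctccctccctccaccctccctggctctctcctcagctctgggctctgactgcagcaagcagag
Col6a2: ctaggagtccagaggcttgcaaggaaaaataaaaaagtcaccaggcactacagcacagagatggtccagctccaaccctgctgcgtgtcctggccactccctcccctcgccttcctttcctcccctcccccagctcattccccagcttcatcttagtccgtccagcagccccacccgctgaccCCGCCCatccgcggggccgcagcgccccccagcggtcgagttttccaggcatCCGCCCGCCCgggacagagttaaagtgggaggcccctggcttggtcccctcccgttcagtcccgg
Col18a1: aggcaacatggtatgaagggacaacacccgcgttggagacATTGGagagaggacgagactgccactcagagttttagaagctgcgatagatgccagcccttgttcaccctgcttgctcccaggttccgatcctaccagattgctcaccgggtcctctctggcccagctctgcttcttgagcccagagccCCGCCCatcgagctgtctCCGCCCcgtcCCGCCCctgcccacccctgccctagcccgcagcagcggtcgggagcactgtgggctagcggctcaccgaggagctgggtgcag

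No motif searched stood in all 3 windows shown. The Col6a1 window held TGANTCA and none of the other letters searched. The Col6a2 window shown held GGGCGG, as did its other window, and the Col18a1 window shown held GGGCGG and CCAAT. The other Col18a1 window, at chr10:77113656-77113955, held none of the letters searched. Over all members, 27 of 36 had 30 windows. GGGCGG stood in 56.7% of these windows and in 35.7% of all 32851 windows of the same length, CCAAT in 40.0% and 37.4%, TATAAA in 16.7% and 13.6%, TGANTCA in 3.33% and 7.81%, and TTCNNNGAA, the letters of a STAT site, in 0% and 8.3%. The GC content of the windows ranged from 37.7% to 75.0%. A match or its lack describes these letters in these windows only.

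Among fibrillar collagens 3 of the 7 tested genes were higher in HET, and they belong to types V, III and I. Col5a2, a chain of type V collagen that sets the width of fibrils, had levels of 5.84 and 5.95 in HET cells, 5.01, 5.23 and 5.13 in KO cells, and 4.91 and 4.74 in WT cells. The groups did not overlap, and HET exceeded WT by 1.07 ± 0.12 (adjusted p = 0.0075), or 2.10-fold, with WT replicate 2 in the dimmest 30% of its array. The other type V chains stood lower in HET by their means, with log2 differences of -0.43 ± 0.20 for Col5a1 (adjusted p = 0.202) and -0.37 ± 0.22 for Col5a3 (adjusted p = 0.296), neither past the threshold. Their levels spanned 5.63 to 6.45 for Col5a1 and 5.68 to 6.41 for Col5a3 over the 7 arrays.

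Col3a1, the sole chain of type III collagen, had levels of 7.48 and 6.11 in HET cells, 6.01, 5.19 and 6.23 in KO cells, and 4.87 and 4.45 in WT cells. Its HET and KO arrays overlapped, and both groups lay above WT. The log2 difference of HET from WT was 2.13 ± 0.49 (adjusted p = 0.0408), or 4.39-fold, a size that is uncertain because WT replicate 2 was in the dimmest 30%. Col1a2, the alpha 2 chain of type I collagen, had levels of 7.37 and 6.85 in HET cells, 6.51, 5.84 and 6.85 in KO cells, and 5.97 and 5.53 in WT cells. Here the highest KO array came close to the lower HET array, and KO replicate 2 lay within the range of the WT arrays. For it HET exceeded WT by 1.36 ± 0.34 (adjusted p = 0.0499), or 2.57-fold, just inside the threshold. Both genes were lowest in KO at replicate 2. Col3a1 and Col5a2 are next to each other on chromosome 1 among protein-coding genes. The Col3a1 window, on the plus strand at chr1:45311288-45311587, is shown as that of a called gene which holds TATAAA (in capitals).
Col3a1: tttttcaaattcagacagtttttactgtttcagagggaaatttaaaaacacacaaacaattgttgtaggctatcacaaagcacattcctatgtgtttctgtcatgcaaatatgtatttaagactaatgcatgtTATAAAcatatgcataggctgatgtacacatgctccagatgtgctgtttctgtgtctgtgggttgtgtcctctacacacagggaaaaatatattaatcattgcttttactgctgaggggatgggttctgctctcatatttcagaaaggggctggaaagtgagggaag

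The chains of type XI collagen, a fibrillar collagen best known from cartilage, differed in opposite directions. Col11a1 had levels of 11.66 and 11.82 in HET cells, 9.59, 10.51 and 9.46 in KO cells, and 10.57 and 9.54 in WT cells. HET was above every other array, but the KO and WT arrays spread widely, and the log2 difference of HET from WT of 1.68 ± 0.42 had an adjusted p of 0.0502. Its second probe set gave 1.5. Col11a2 was lowest in HET, at 6.68 and 7.13, against 7.99, 7.58 and 7.70 in KO cells and 7.49 and 7.57 in WT cells. Its log2 difference of HET from WT was -0.63 ± 0.19 (adjusted p = 0.0782).

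Of the 4 network chains tested, 1 passed, while the type VIII chain Col8a1 of vessel walls and eye spanned only 4.64 to 5.38. Col4a5, a type IV chain of specialised basement membranes, had levels of 6.95 and 6.76 in HET cells, 4.95, 4.79 and 4.66 in KO cells, and 5.29 and 3.28 in WT cells. All KO arrays and WT replicate 2 were in the dimmest 30% of their array. The log2 difference of HET from WT was 2.57 ± 0.55 (adjusted p = 0.0342), or 5.94-fold. This size rests on the wide gap between the WT arrays. The second probe set of Col4a5 gave 1.37 (adjusted p = 0.0179 over all probe sets). There, all KO and both WT arrays were dim in the same sense and only HET was brighter, so 1.37 is uncertain too. The neighbour of Col4a5 on the X chromosome, Col4a6, stayed between 4.55 and 4.90 and was not tested.

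Col4a1 and Col4a2 encode the chains of the common basement-membrane type IV molecule. Col4a1 had levels of 8.23 and 8.47 in HET cells, 7.30, 7.83 and 7.82 in KO cells, and 7.82 and 7.37 in WT cells. Col4a2 had 6.34 and 6.63 in HET cells, 6.25, 6.72 and 6.67 in KO cells, and 6.56 and 6.44 in WT cells. HET was the highest group for Col4a1, with a log2 difference from WT of 0.76 ± 0.23 (adjusted p = 0.0789) and of 0.23 by its dimmer probe set, while the groups overlapped for Col4a2 at -0.02 ± 0.19 (adjusted p = 0.964). These genes start head to head on chromosome 8, and their windows are shown because they overlap: chr8:11312777-11313076 on the minus strand for Col4a1 and chr8:11312555-11312854 on the plus strand for Col4a2 (GRCm38.p6). Capitals mark the 78 bases that both windows cover, read on opposite strands.
Col4a1: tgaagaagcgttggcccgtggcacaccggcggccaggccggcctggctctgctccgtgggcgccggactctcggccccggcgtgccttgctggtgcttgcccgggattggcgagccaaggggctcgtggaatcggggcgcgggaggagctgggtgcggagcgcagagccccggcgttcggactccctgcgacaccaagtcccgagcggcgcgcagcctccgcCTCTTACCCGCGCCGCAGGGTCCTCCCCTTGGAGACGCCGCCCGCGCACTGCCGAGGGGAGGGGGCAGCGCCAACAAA
Col4a2: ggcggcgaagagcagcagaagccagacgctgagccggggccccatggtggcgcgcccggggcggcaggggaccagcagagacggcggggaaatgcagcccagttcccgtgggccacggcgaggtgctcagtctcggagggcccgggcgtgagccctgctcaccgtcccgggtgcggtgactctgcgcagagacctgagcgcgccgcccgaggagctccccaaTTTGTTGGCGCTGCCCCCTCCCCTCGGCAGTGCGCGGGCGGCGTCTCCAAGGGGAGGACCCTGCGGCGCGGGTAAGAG

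None of the 7 tested FACIT collagens passed by limma, although 1 was higher and 2 were lower at an unadjusted p under 0.05. Type IX collagen, which coats cartilage fibrils, had chains with differences of either sign. Col9a3 had levels of 8.17 and 8.73 in HET cells, 9.09, 8.73 and 8.86 in KO cells, and 9.56 and 9.16 in WT cells. It was lowest in HET and highest in WT, with a log2 difference of HET from WT of -0.91 ± 0.23 (adjusted p = 0.050, just outside the threshold) and of -0.28 by another probe set. Col9a1 differed by 0.72 ± 0.44 (adjusted p = 0.315) and Col9a2 by -0.07 ± 0.10 (adjusted p = 0.721). Over the 7 arrays Col9a1 spanned 7.42 to 9.33 and Col9a2 5.22 to 5.40. Col20a1 set the HET arrays apart from each other, at 6.76 and 8.39, a gap that each of its 3 probe sets showed. Its levels were 6.28, 6.07 and 6.66 in KO cells and 6.74 and 5.87 in WT cells. The other FACIT genes tested had narrower spans, 5.53 to 5.87 for Col12a1 and 8.99 to 10.09 for Col16a1, except Col19a1, which had 6.49 and 6.84 in HET cells and is described with KO against WT.

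The transmembrane Col13a1, a chain found at the cell surface and at neuromuscular junctions, had levels of 5.41 and 5.60 in HET cells, 4.84, 4.42 and 4.84 in KO cells, and 4.80 and 4.56 in WT cells. The log2 difference of HET from WT was 0.83 ± 0.18 (adjusted p = 0.0355), with every KO and WT array in the dimmest 30%. Col15a1, the other multiplexin, spanned 4.72 to 5.15 over all arrays. Col7a1 of anchoring fibrils spanned 5.43 to 6.0. Col26a1 was below all other arrays in HET, at 4.73 and 4.28, against 5.11, 5.09 and 5.75 in KO cells and 5.35 and 5.70 in WT cells, with a log2 difference from WT of -1.02 ± 0.27 (adjusted p = 0.0564). This gene passed the filter through its KO and WT arrays alone, so it had to differ.

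**Figure D2:**
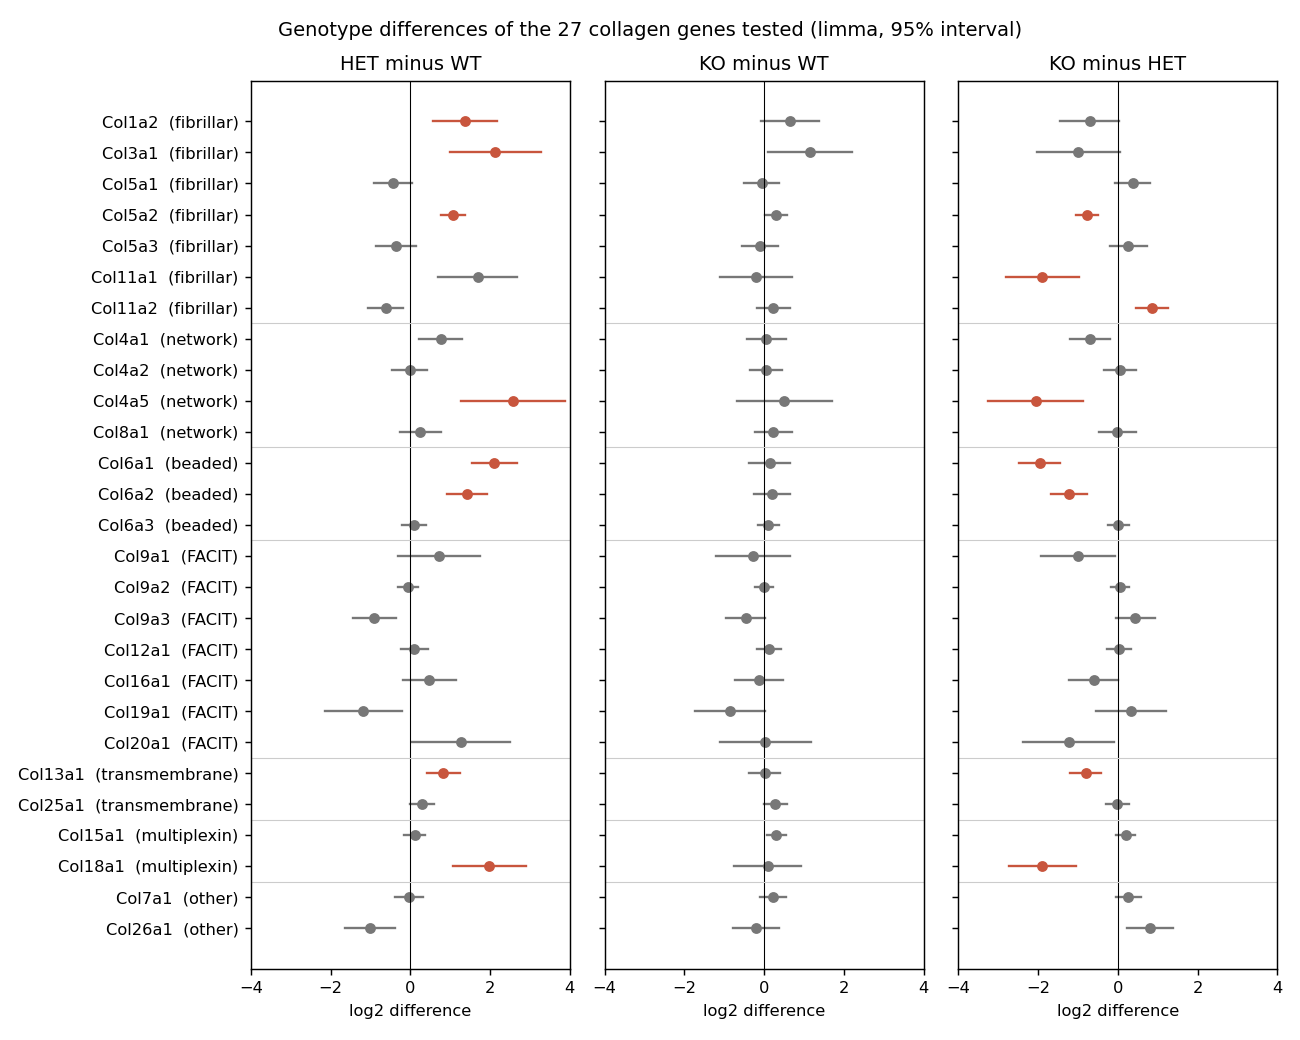
Log2 differences of the 27 tested collagen genes for HET minus WT, KO minus WT and KO minus HET, with 95% confidence intervals from the limma fit and genes grouped by class. Red marks an adjusted p under 0.05: 8 genes in HET against WT, 0 in KO against WT and 8 in KO against HET.

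For loss of both Ptprd alleles, KO cells were set against WT cells. In this comparison 0 of the 27 collagen genes were called by limma, as were 0% of all 9243 genes, and the smallest adjusted p was 0.882. At an unadjusted p under 0.05 there were 4 collagen genes, all higher in KO, beside 475 (5.14%) of all genes (2.75% higher and 2.39% lower). The arrays did not overlap for 8 collagen genes, 6 higher and 2 lower in KO (over all genes 21.7%, 10.7% higher and 11% lower), and the median log2 difference was 0.09. Each collagen gene named here had an adjusted p of 0.882. Col15a1, which had the smallest p of the collagen genes, stood at 5.15, 5.03 and 5.10 in KO cells, against 4.72 and 4.85 in WT cells, a log2 difference of 0.31 ± 0.10. The others with an unadjusted p under 0.05 were Col3a1 at 1.15 ± 0.44, Col5a2 at 0.30 ± 0.11 and Col25a1, a transmembrane collagen of neurons, at 0.28 ± 0.12. Col19a1, a FACIT collagen, came next, with levels of 6.24, 7.64 and 7.09 in KO cells, against 8.05 and 7.64 in WT cells, and a log2 difference of -0.86 ± 0.37. The KO levels of Col19a1 spread over a wider range than this difference.

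KO against HET called 8 of 27 collagen genes, 1 higher and 7 lower in KO (29.6%, against 8.96% of all genes, 5% higher and 3.96% lower). Without the filter 7 of 36 were called, 1 higher and 6 lower (over all genes 5.16%, 2.95% higher and 2.22% lower). The arrays did not overlap for 16 of the 27, 4 higher and 12 lower in KO (over all genes 43.7%, 25.7% higher and 17.9% lower). This comparison shares the HET arrays with that of HET against WT, so the values are given side by side and not as a second test of the same genes. The log2 differences of KO from HET were -1.96 ± 0.22 for Col6a1 (adjusted p = 0.0070), -1.22 ± 0.19 for Col6a2 (adjusted p = 0.0169) and -0.77 ± 0.11 for Col5a2 (adjusted p = 0.0153). They were -1.89 ± 0.35 for Col18a1 (adjusted p = 0.0280), -0.81 ± 0.16 for Col13a1 (adjusted p = 0.0332) and -2.06 ± 0.50 for Col4a5 (adjusted p = 0.0498). Col13a1 had to differ here too, as it passed the filter through its HET arrays alone. All KO arrays of Col13a1, Col6a1 and Col4a5 were in the dimmest 30%, so these sizes are uncertain. Col11a1, just outside the threshold in HET against WT, passed here at -1.89 ± 0.39 (adjusted p = 0.0339), a 3.71-fold lower level in KO. Col11a2 was the exception, higher in KO by 0.86 ± 0.17 (adjusted p = 0.0329). Col3a1 and Col1a2 did not pass, at -0.99 ± 0.44 (adjusted p = 0.199) and -0.71 ± 0.31 (adjusted p = 0.188). Shares of all genes called are not given for fits with 1 array left out, so drops are not read as particular to collagen. The count was 1 without HET replicate 1 (Col6a1), 2 without KO replicate 1 or KO replicate 3 (Col5a2 and Col6a1), and 3 without HET replicate 2. It was 0 by limma without HET replicate 1 and KO replicate 1 together, when 10 had an unadjusted p under 0.05 (15.4% of all genes). An F test over the 3 genotypes called 4 of 27 collagen genes, Col5a2, Col6a1, Col6a2 and Col18a1, against 5.65% of all genes. It called 0 without HET replicate 1 or HET replicate 2 (12 and 13 at an unadjusted p under 0.05, beside 14.5% and 25.3% of all genes) and 2 without KO replicate 1, KO replicate 3 or WT replicate 2.

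Over all 7 arrays, both HET arrays exceeded every KO and WT array for 11 of the 27 collagen genes (15.3% of all genes) and lay below all of them for 2, Col11a2 and Col26a1 (22.3% of all genes). Col13a1, among the 11, passed the filter through its HET arrays alone, and Col26a1 through its KO and WT arrays alone. Both therefore had to stand apart. The collagen genes were also more variable within a genotype than genes at large. Their median SD was 0.224 in HET, 0.211 in KO and 0.246 in WT, against 0.115, 0.143 and 0.0900 over all genes tested.

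**Figure D3:**
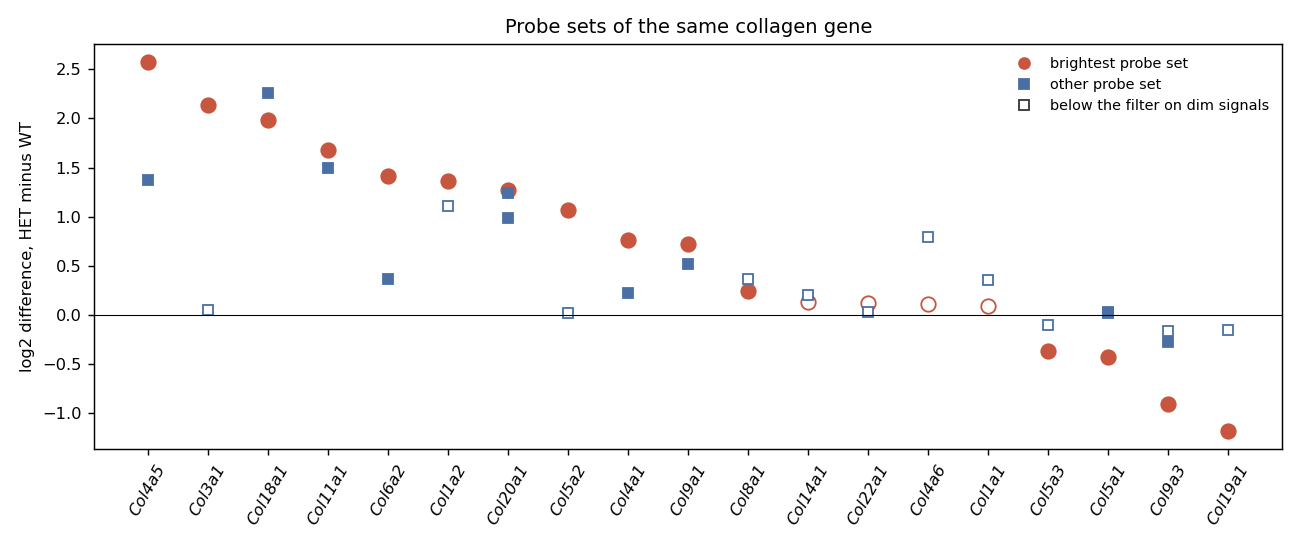
Log2 difference of HET from WT for each probe set of the collagen genes that have several, with the brightest probe set of a gene marked. Probe sets of Col18a1 (1.98 and 2.26) and Col11a1 (1.68 and 1.5) lie close together, whereas the dimmer ones of Col3a1 and Col5a2 lie near 0.

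Probe sets of a gene did not always give the same size. The dimmer probe sets of Col3a1 and Col5a2 differed between HET and WT by 0.05 and 0.02, and both lay under the 30th percentile on all 7 arrays. That of Col1a2 differed by 1.11, with 1 array above the percentile. Of the called genes, Col6a1 and Col13a1 had 1 probe set each.

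Genes whose products make, bind or degrade collagen were read from 6 lists, and the share of each list called in HET against WT stands beside 10.1% of all genes. Of 17 tested genes for synthesis and modification, 2 were higher in HET and 0 lower (11.8%), namely Serpinh1, the collagen chaperone Hsp47, by 1.33 ± 0.28 (adjusted p = 0.0326) and Plod2, a lysyl hydroxylase, by 1.28 ± 0.28 (adjusted p = 0.0364). Serpinh1 had a KO mean between those of HET and WT, with means of 6.19 in HET, 5.58 in KO and 4.86 in WT. Its KO replicate 1, at 6.03, lay above HET replicate 2, at 5.92. The order of means was not particular to Serpinh1, as Plod2 had 8.53 in HET, 7.49 in KO and 7.25 in WT. Of 8 genes for propeptide cleavage and crosslinking 3 were called (37.5%): the enhancers of procollagen cleavage Pcolce2 (1.13 ± 0.14, adjusted p = 0.0086) and Pcolce (2.22 ± 0.35, adjusted p = 0.0162) were higher and the lysyl oxidase Loxl3 was lower (-0.70 ± 0.16, adjusted p = 0.0421). The median log2 difference was -0.01 over the synthesis genes, with 7 of the 17 above 0, and 0.14 over the cleavage and crosslinking genes, with 5 of the 8 above 0.

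Among 6 collagen receptors, 1 was lower in HET (16.7%): Adgrg1, the adhesion receptor that binds type III collagen, had a log2 difference of -0.75 ± 0.17 (adjusted p = 0.0413). The collagen receptor kinases Ddr1 and Ddr2 did not pass. Of 13 collagen-binding matrix proteins Tgfbi alone passed (7.69% of the list; 1.78 ± 0.33, adjusted p = 0.0231). Of 11 genes of collagen degradation 2 were called (18.2%): the protease inhibitor Timp1 was higher by 3.93 ± 0.20 (adjusted p = 0.000895) and the protease Ctss, which is also one of the microglia and macrophage markers, by 1.78 ± 0.30 (adjusted p = 0.0180). Timp1 entered the test through its HET arrays alone, at 8.51 and 7.88, against 4.47, 4.61 and 4.44 in KO cells and 4.31 and 4.22 in WT cells, so that it had to differ and the size is uncertain. Of 14 genes of TGF-beta signalling and matrix transcription 3 were called (21.4%): Ccn2, a matrix protein induced by TGF-beta (1.66 ± 0.32, adjusted p = 0.0264), and the receptor Tgfbr2 (1.11 ± 0.22, adjusted p = 0.0283) were higher and the ligand Tgfb3 was lower (-0.85 ± 0.18, adjusted p = 0.0337). Median log2 differences of HET from WT were 0.31 over the collagen-binding proteins (11 above 0, 2 below) and -0.25 over the receptors (2 above, 4 below). They were -0.12 over the degradation genes (4 above, 7 below) and -0.04 over the TGF-beta and transcription genes (6 above, 8 below). In KO against WT no list had a call, as no gene had.

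Markers of other cell types were read beside the collagen genes. Of 18 tested microglia and macrophage markers (20 listed) 14 were higher in HET than in WT (77.8%). Of these, 3 (Ptprc, Cd68 and Cd14) entered the test through the HET arrays alone and had to differ, and 11 did not. The mean level of the list was 6.28 to 6.65 in HET, 5.30 to 5.70 in KO and 5.10 to 5.44 in WT, with the defining markers Itgam under the percentile on all 7 arrays and Aif1 above it on 1. Of 10 astrocyte markers 3 were higher and 1 was lower (40%), of which Aldh1l1 was tested through its HET arrays alone, with mean levels of 8.45 to 8.63 in HET, 7.62 to 8.2 in KO and 7.79 to 7.89 in WT. Of 9 tested endothelial markers (14 on the array) 0 were called by limma and 0 at an unadjusted p under 0.05, their mean level spanned 4.98 to 5.05 in HET, 4.84 to 5.14 in KO and 4.95 to 5.08 in WT, and Pecam1 was under the percentile on all 7 arrays. Of 6 tested pericyte and smooth muscle markers 1 was higher (16.7%), Tagln (1.58 ± 0.24, adjusted p = 0.0146), with mean levels of 5.14 to 5.25 in HET, 4.89 to 5.20 in KO and 4.91 to 4.98 in WT.

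Fibroblast and meningeal markers varied between single arrays, and not all in the same way. The mean level of the 12 listed markers was 6.38 and 6.27 in HET, 6.42, 5.69 and 6.50 in KO, and 5.66 and 5.58 in WT. Dcn, Lum and Pdgfrb of this list also belong to another list. Dcn, the collagen-binding proteoglycan decorin, had levels of 8.34 and 6.79 in HET cells, 8.36, 5.24 and 8.53 in KO cells, and 5.59 and 5.45 in WT cells. KO replicate 2 and both WT arrays were thus low together, for Dcn as for Col3a1. Igf2, Ptgds, Slc6a13 and Islr were also lowest on these arrays. Igf2 had 7.23 and 7.03 in HET cells, 7.92, 6.27 and 7.79 in KO cells, and 6.13 and 6.80 in WT cells. The remaining members of the list did not share this order in full. Lum, the proteoglycan lumican, had 7.37 and 6.49 in HET cells, 7.75, 6.64 and 7.92 in KO cells, and 7.40 and 5.85 in WT cells. Mgp, matrix Gla protein, had 8.72 and 9.87 in HET cells, 6.04, 6.7 and 6.79 in KO cells, and 6.43 and 5.68 in WT cells, and Slc22a6 was highest on WT replicate 1, at 5.69. Of the 9 tested fibroblast markers 1 was higher in HET (11.1%), Mgp (3.24 ± 0.44, adjusted p = 0.0108), while the defining markers Aldh1a2, Foxc1 and Crabp2 did not reach the filter. The KO arrays spanned 4.60 to 4.95 for Col6a1, but none of them lay above the percentile of the filter. This span therefore cannot show whether Col6a1 shared the order of Dcn. For Col6a2, which lay above the percentile on all KO arrays, the KO span was 5.40 to 5.56. For Col18a1 KO replicate 2 was the highest of the 3 KO arrays. Of 8 oligodendrocyte progenitor markers 4 were lower in HET (50%), among them Pdgfra (-0.65 ± 0.14, adjusted p = 0.0368). Of 6 neuronal markers 2 were lower (33.3%), and of 8 markers of myelinating oligodendrocytes 0 were called by limma and 2 had an unadjusted p under 0.05. The part of any of these cells in the collagen result was not tested.

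**Figure D4:**
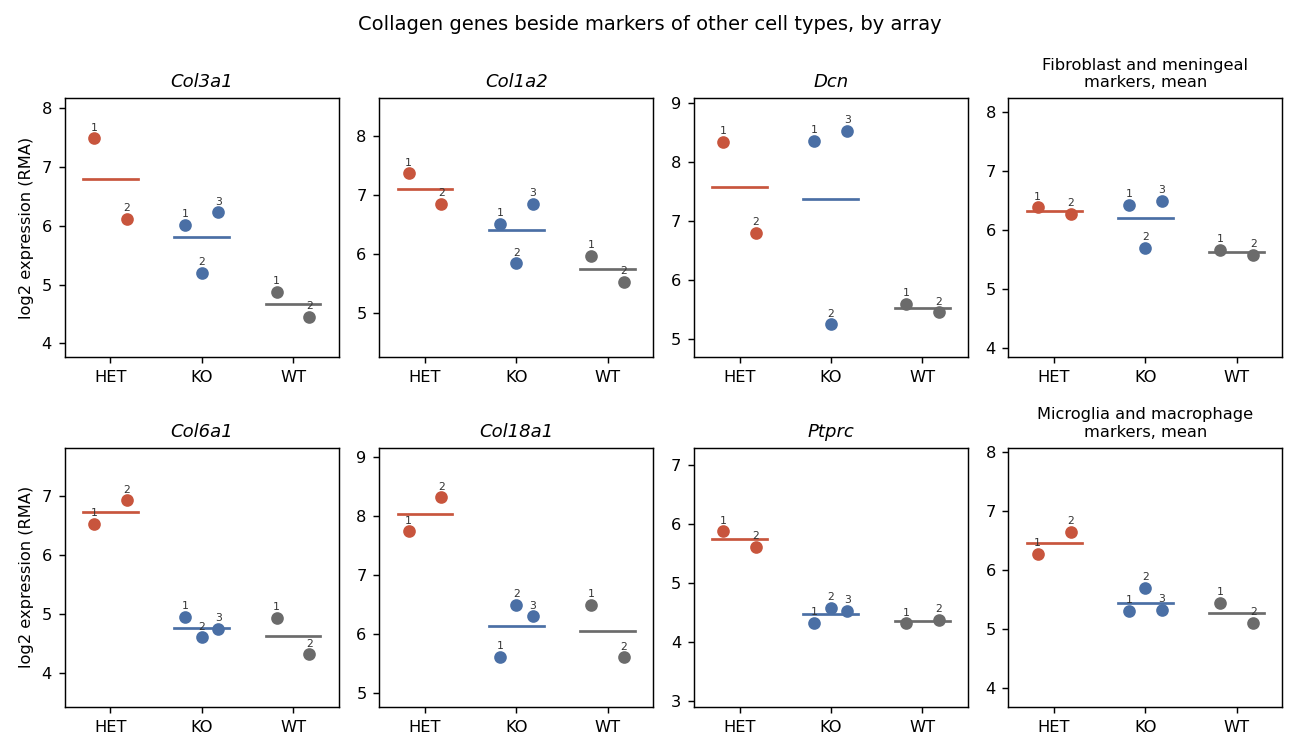
Log2 level (RMA) by array of Col3a1 and Col1a2 beside Dcn and the mean of the fibroblast and meningeal markers (top), and of Col6a1 and Col18a1 beside Ptprc, the pan-leukocyte marker CD45, and the mean of the microglia and macrophage markers (bottom). Points are numbered by replicate, lines are group means, and every panel spans the same number of log2 units. The fibroblast and meningeal mean is 6.27 to 6.50 on both HET arrays and KO replicates 1 and 3 and 5.58 to 5.69 on KO replicate 2 and both WT arrays, while the microglia and macrophage mean is highest on the HET arrays.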

How the data were processed

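Total RNA (75 ng a sample) from sorted tumour cells was hybridised to 7 Affymetrix 3' expression arrays, per the labels' protocols. The deposited values are log2 expression levels, made with RMA and Partek 6.6 per the submitters' processing notes; RMA sets all arrays to a common distribution, so a shift of all genes cannot be seen. Of 22690 probe sets, 64 were controls, 20380 named 1 gene in the platform annotation, 691 named several and 1555 were unnamed here. Scanner files and detection calls were not used here.

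Each gene was represented by its brightest probe set. A mean per genotype was fitted to all 7 arrays (4 residual degrees of freedom) with limma 3.58.1 in R 4.3.3, with two-sided moderated tests for 3 pairs of genotypes and an F test, adjusted by Benjamini-Hochberg over 9243 genes at 0.05. The number of arrays limits the precision. Probe sets were also fitted singly, and the unfiltered fit held 12393 genes.

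All collagen genes are named, most of them with levels. Differences and tests are given for those past the threshold, filled up by smallest p to 5 in KO against WT and in KO against HET, and from each list for at most 4 genes called in HET against WT. Values outside this rule were chosen after they were seen. The members and the 14 gene lists were chosen with earlier results of these data known. Promoter windows (RefSeq, GRCm38.p6) were searched on both strands. Alternatives were other filters, probe-set summaries, scalings, variance models, a 3' to 5' control covariate, a replicate block and arrays left out.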

Additional observations from a re-analysis of the deposited data

How the results depend on the processing

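Over the alternatives run, 0 named collagen genes changed direction, while the number past the threshold moved. Shares of all genes are not given beside the counts in this section. A move in count is thus not read as particular to collagen genes. In HET against WT, where 8 collagen genes were called, 5 were called with the filter at the 50th percentile (4 higher and Col9a3 lower), 5 without probe sets marked as shared, 2 with only the genotypes compared, 5 with the 3' to 5' control covariate (4 higher, 1 lower), 0 in an unmoderated linear model (12 at an unadjusted p under 0.05) and 0 without HET replicate 1 and KO replicate 1 (14 unadjusted). In KO against HET, where 8 were called, 4 were called at the 50th percentile, 0 unmoderated (8 unadjusted) and 0 without both arrays (10 unadjusted). The F test, which called 4, called 1 at the 50th percentile, 7 with a mean-dependent trend, 0 unmoderated (9 unadjusted) and 0 without both arrays (10 unadjusted).

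Leaving out 1 array at a time gave 1 to 8 calls in HET against WT, 1 to 7 in KO against HET, 0 to 6 in the F test (12 and 13 unadjusted in the fits with 0) and 0 in KO against WT (2 to 5 unadjusted). Col6a1, Col6a2 and Col5a2 kept their call in HET against WT in 6 of 7 such fits, Col18a1 in 4, Col4a5, Col3a1 and Col1a2 in 2 and Col13a1 in 1. The collagen median of HET against WT (0.29) was 0.12 with no filter and 0.74 at the 50th percentile, and 0.18 to 0.38 with 1 array left out. That of KO against HET (-0.02) was -0.70 at the 50th percentile, -0.16 with the mean of the probe sets, -0.31 without both arrays and -0.20 to 0.0026 with 1 array left out, and that of KO against WT (0.09) was -0.033 to 0.22. Filters change which genes are tested; for the other settings the cause was not tested.

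With the replicate block, 4 collagen genes were called in HET against WT, 0 in KO against HET (12 at an unadjusted p under 0.05) and 0 in the F test (12 unadjusted). Deviations of same-numbered arrays from their group means correlated at 0.111 for HET with WT, at -0.179 and -0.414 for KO with WT, and at 0.022 and -0.193 for KO with HET. In a group of 2 arrays the deviations are equal and opposite. Such correlations therefore cannot show whether same-numbered samples share more than a number. Detection calls were not used, which limits what the dimmest collagen genes can show.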
